A study of Mus musculus with 12 samples.

Results

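Greb1, Stc2, Stc1, Myb, Slc7a2, Pdzk1 and Nrip1, 7 genes known as targets of the estrogen receptor, were followed in the mouse mammary gland through every probe set annotated to them. They had 23 of the 45037 probe sets on the array that are not controls, and were 7 of the 18193 genes with a probe set annotated to a single symbol. The genes were chosen by name for their place in the estrogen response and not by a threshold on these arrays, with earlier results of the same arrays known.

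The study measured RNA of whole mammary glands from ovariectomized BALB/c females aged 10 weeks, either progesterone receptor null or wild type. Every mouse received 100 ng of estradiol under the skin for 24 h and then 100 ng of estradiol together with 2.5 ug of progesterone for a further 24 h or 8 h. Each of the 4 groups, null at 24 h, wild type at 24 h, null at 8 h and wild type at 8 h, had 3 Affymetrix arrays, and each array held RNA pooled from 3 mice. No group went without estradiol or without progesterone, so the arrays hold no hormone-free level, and the labels do not describe the null allele.

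Estradiol binds the estrogen receptor, a transcription factor that enters DNA at estrogen response elements or through partner proteins and recruits coactivators or corepressors. In the mammary gland the receptor sits in a subset of luminal epithelial cells, many of which also carry the progesterone receptor, itself a classical estrogen target. Because the nulls lack that second receptor, the comparison of genotypes asks how far estrogen-responsive transcripts differ without it when both hormones are given.

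The letters just upstream of a gene are where a receptor's direct DNA contact could first be looked for, and they are shown for the 3 genes whose transcripts changed most over time or between genotypes and which have an entry in the RefSeq promoter table (GRCm38.p6). Each sequence is the 250 bases before the annotated start, read 5′ to 3′ on the gene's own strand, and capitals mark the motif matches. Greb1 lies on the minus strand at chr12:16800887-16801136, Stc2 on the minus strand at chr11:31370062-31370311 and Myb on the minus strand at chr10:21160985-21161234.
Greb1: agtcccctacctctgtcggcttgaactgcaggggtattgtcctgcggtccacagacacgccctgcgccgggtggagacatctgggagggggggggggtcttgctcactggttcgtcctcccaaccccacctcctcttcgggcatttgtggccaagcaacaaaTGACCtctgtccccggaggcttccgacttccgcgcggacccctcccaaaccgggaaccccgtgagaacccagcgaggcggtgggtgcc
Stc2: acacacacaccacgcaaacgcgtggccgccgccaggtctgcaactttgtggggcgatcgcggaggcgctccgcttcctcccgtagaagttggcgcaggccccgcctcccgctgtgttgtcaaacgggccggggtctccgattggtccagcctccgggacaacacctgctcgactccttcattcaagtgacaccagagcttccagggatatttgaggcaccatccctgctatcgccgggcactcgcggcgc
Myb: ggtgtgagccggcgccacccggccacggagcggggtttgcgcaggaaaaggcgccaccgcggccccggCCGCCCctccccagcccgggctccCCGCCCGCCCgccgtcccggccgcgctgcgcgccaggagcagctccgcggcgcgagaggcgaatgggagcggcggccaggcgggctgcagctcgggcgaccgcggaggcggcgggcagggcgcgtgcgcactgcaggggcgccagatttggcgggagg
The palindromic estrogen response element was searched as GGTCANNNTGACC, its single arm as GGTCA, the shared progesterone and glucocorticoid receptor element as GNACANNNTGTNC, and the GC box bound by Sp1 as GGGCGG, each on both strands. An arm match inside a palindrome would have been counted under both, and GC boxes were allowed to overlap. The Greb1 sequence held 1 arm, as TGACC on the gene's strand, the Stc2 sequence held no match, and the Myb sequence held 3 GC boxes, each as CCGCCC, of which a pair overlap. Greb1 has 2 promoters in the table, and 1 is shown. The other, at chr12:16757240-16757489, held 2 arms, both as GGTCA.

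Of the 7 genes, 5 had entries in that table, with 8 promoters in all: Greb1, Pdzk1 and Nrip1 with 2 each, and Stc2 and Myb with 1 each; Stc1 and Slc7a2 are named only. The full palindrome was in 0 of the 8 and in 0.0639% of all 32851 promoters of that length. The single arm was in 4 of the 8 and in 35.2% of all promoters. The progesterone and glucocorticoid element was in 0 of the 8 and in 0.387% of all, and the GC box was in 3 of the 8 and in 32.7% of all. These counts describe letters in short windows and bear on no receptor's binding.

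All levels below are log2 values of the deposited table, and a difference of 1 is a 2-fold change. Array medians lay between 5.84 and 5.91, and arrays of one group correlated with r between 0.965 and 0.993 over probe sets. A probe set was tested when it stood above its array's median on at least 3 of the 12 arrays, and each gene is read from whichever of its probe sets had the highest mean. Pgr, the targeted gene, had opposite patterns on its tested probe sets. On 1455772_at it read 6.57, 6.32 and 6.24 in null glands at 24 h, against 4.36, 4.01 and 4.47 in wild type, and 6.79, 6.81 and 6.93 in null glands at 8 h, against 4.97, 4.62 and 5.02 in wild type. On 1439527_at null arrays lay between 7.20 and 7.86 at 24 h, against 7.52 to 8.10 in wild type, and between 8.56 and 9.07 at 8 h, against 9.89 to 10.01 in wild type. Where these probes lie relative to the targeted part of Pgr is not given in the sources used here, so they do not check the labels.

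Of the 7 genes, 6 passed the filter on low values, with 14 of the 23 probe sets, and Pdzk1 did not pass. Greb1 and Stc1 passed through 8 arrays each, all those at 8 h and few at 24 h. At 8 h, 3 of the 6 tested genes differed between null and wild type glands at an adjusted p below 0.05 (limma, Benjamini-Hochberg over 23709 probe sets), Stc2 and Myb lower and Slc7a2 higher in null; 3.00% of all 12002 tested genes were called there. At 24 h, 2 of the 6 were called, Stc2 lower and Slc7a2 higher, against 1.30% of all genes. Between the times, 3 of the 6 were lower at 24 h than at 8 h in null glands (Greb1, Stc2 and Myb) and 4 of the 6 in wild type (Greb1, Stc2, Myb and Stc1), with none called higher. Greb1 and Stc1 entered the test mainly through the time where they are high, so their calls lend these counts no support. Of all tested genes, 4.57% were called over time in null, 3.83% as lower, and 5.27% were called in wild type, 3.82% as lower. The median difference of the 6 genes was -0.44 between genotypes at 24 h and -0.04 at 8 h, against -0.02 over all probe sets at both times. Over time it was -0.64 in null and -0.79 in wild type, against -0.03 and -0.02 over all probe sets.

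**Figure D1:**
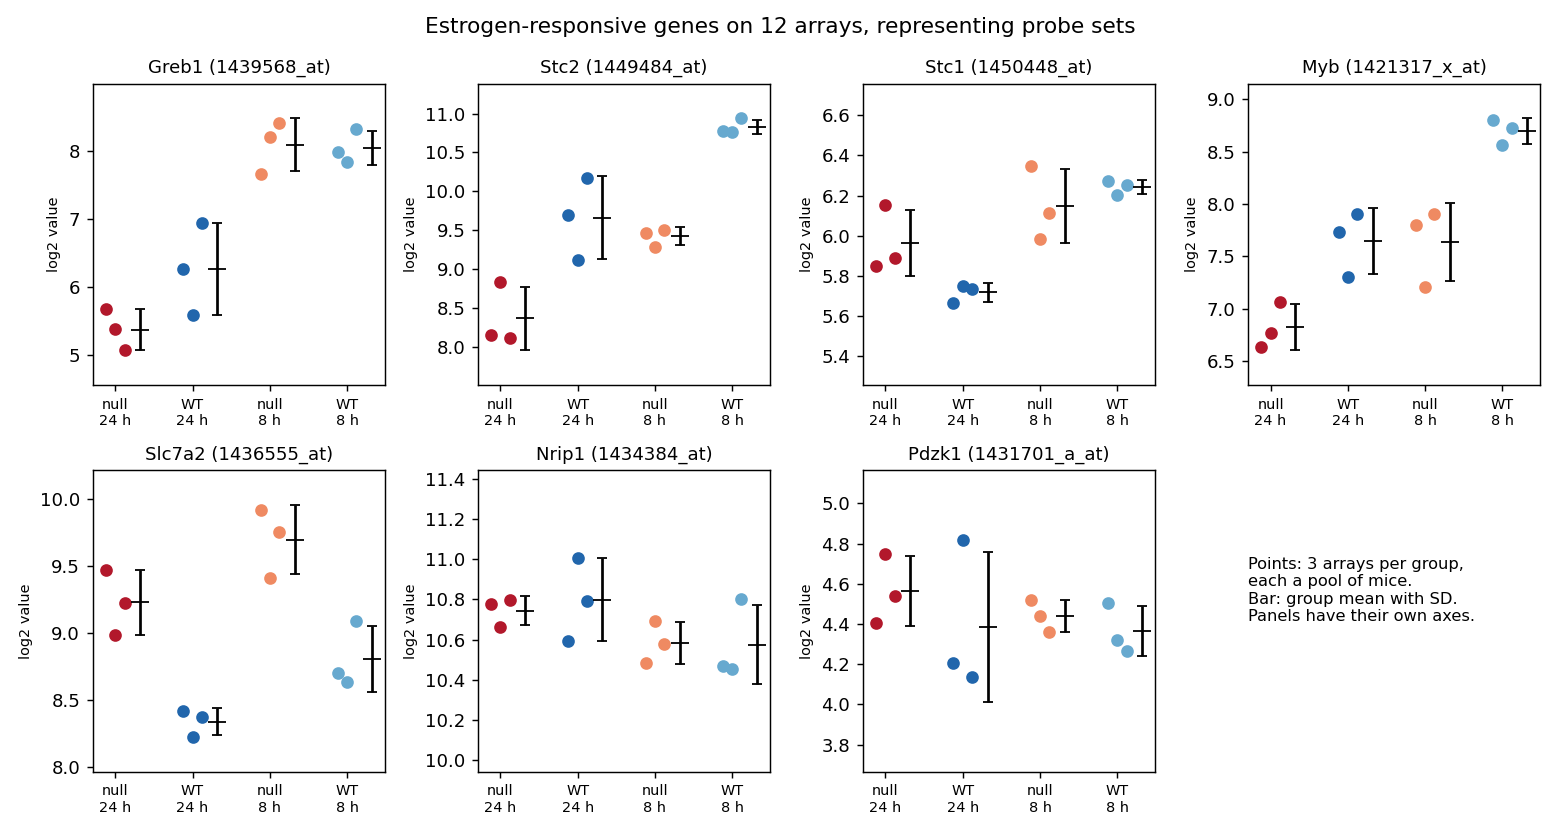
Log2 level of each gene's representing probe set on all 12 arrays, by group, with null left of wild type at each time; points are arrays, and bars mark the mean and SD of 3 arrays. Stc2 and Myb stand highest in wild type at 8 h, Slc7a2 stands higher in null than in wild type at both times, and Greb1 separates by time.

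Stc2 encodes stanniocalcin 2, a secreted glycoprotein. Its probe set 1449484_at read 8.15, 8.84 and 8.12 in null glands at 24 h, against 9.70, 9.12 and 10.18 in wild type. At 8 h it read 9.47, 9.29 and 9.51 in null glands, against 10.78, 10.77 and 10.94 in wild type. The null arrays lay below every wild type array at each time. The means were 8.37 ± 0.41 in null and 9.67 ± 0.53 in wild type at 24 h, and 9.42 ± 0.12 in null and 10.83 ± 0.10 in wild type at 8 h (SD, n = 3 each). Null glands were 2.45-fold lower at 24 h (log2 -1.29, SE 0.24, adjusted p = 0.026, limma) and 2.65-fold lower at 8 h (log2 -1.40, SE 0.24, adjusted p = 0.0084). Left out one at a time, no pool ended the 8 h call, while the 24 h call was lost without null pool 1 or 3 or wild type pool 1 or 3 at 24 h (adjusted p 0.081 to 0.10). The mean of 8 epithelial markers was lower in null at 24 h as well (9.10 to 9.34, against 9.57 to 10.00 in wild type), and at 8 h it overlapped (9.54 to 9.76, against 9.40 to 9.62 in wild type). In a whole gland, fewer cells of the type that makes a transcript and less of it per cell cannot be told apart, here and in every result below.

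Stc2 also fell with time in both genotypes. The level at 24 h was 2.07-fold below that at 8 h in null (log2 -1.05, SE 0.24, adjusted p = 0.034) and 2.24-fold below it in wild type (log2 -1.16, SE 0.24, adjusted p = 0.020). In null this call was lost when any 1 of 7 pools was left out (adjusted p 0.053 to 0.12), and in wild type when any 1 of its 3 pools at 8 h was (0.059 to 0.078). The order of the groups was wild type at 8 h, wild type at 24 h, null at 8 h and null at 24 h, and the middle pair overlapped. Null glands at 8 h (9.29 to 9.51) lay within the range of wild type glands at 24 h (9.12 to 10.18), and that pair of groups was not tested. The genotype difference at 24 h minus that at 8 h was 0.11, with a 95% interval of -0.63 to 0.85.

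The 3 probe sets of Stc2 did not all show the genotype difference. On 1419503_at null glands read 7.40, 7.76 and 7.02 at 24 h, against 8.95, 8.25 and 9.23 in wild type, and the difference was -1.42 (SE 0.24, adjusted p = 0.015). At 8 h the same probe set differed by -1.13 (adjusted p = 0.027). On 1445186_at the groups overlapped at both times, with differences of -0.41 at 24 h (adjusted p = 0.39) and -0.08 at 8 h (adjusted p = 0.91). That probe set did change over time in null (log2 -0.99, adjusted p = 0.019), and in wild type its change of -0.66 was not called (adjusted p = 0.075). Over time 1419503_at changed by -0.90 in null (adjusted p = 0.057) and by -0.61 in wild type, where the groups overlapped (adjusted p = 0.16), and neither was called. The fall of Stc2 in wild type was thus called on 1 of its 3 probe sets. Which transcripts each probe set reads was not tested.

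Stc1 encodes stanniocalcin 1, the paralog of Stc2 and likewise secreted. Its tested probe set, 1450448_at, read 5.85, 6.15 and 5.89 in null glands at 24 h, against 5.67, 5.75 and 5.74 in wild type. The 8 h values were 6.35, 5.99 and 6.11 in null, against 6.27, 6.20 and 6.25 in wild type. These values are close to the array medians and span little. The wild type level at 24 h was 1.44-fold below that at 8 h (log2 -0.52, SE 0.12, adjusted p = 0.029), and in null the change was -0.19 (adjusted p = 0.40). The wild type call was lost when any 1 of the 6 wild type pools was left out (adjusted p 0.060 to 0.11). The probe set passed the filter through every array at 8 h and through null arrays alone at 24 h. That call is therefore no support for a fall, since the probe set was let in by groups where it is high. Null stood above wild type on every array at 24 h, but the difference of 0.25 (SE 0.12) was not called (adjusted p = 0.39), and at 8 h the groups overlapped (log2 -0.09, adjusted p = 0.78). The test of the genotype difference between the times gave 0.34 (95% interval -0.03 to 0.70, adjusted p = 0.92). The other probe set, 1421984_at, stayed below the median on all 12 arrays and lay the other way over time in a fit without the filter, at 0.24 in wild type with the groups apart (adjusted p = 0.28) and 0.20 in null (adjusted p = 0.35). In order, wild type at 8 h, null at 8 h and null at 24 h overlapped one with the next, and wild type at 24 h stood below them.

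Myb encodes a transcription factor of progenitor and proliferating cells, and its transcription in human breast cancer cells responds to estrogen. Its probe set 1421317_x_at read 6.64, 6.76 and 7.06 in null glands at 24 h, against 7.73, 7.30 and 7.91 in wild type. After 8 h the null glands read 7.80, 7.21 and 7.90, against 8.80, 8.56 and 8.73 in wild type. On this probe set the null arrays lay below all wild type arrays at both times. The difference was called at 8 h, where null was 2.08-fold lower (log2 -1.06, SE 0.20, adjusted p = 0.013), and not at 24 h, where it was -0.83 (SE 0.20, adjusted p = 0.078). The test of the difference between those effects gave 0.23, with a 95% interval of -0.37 to 0.84. Leaving out the first wild type pool at 8 h ended the 8 h call (adjusted p = 0.068). The 24 h difference was called without wild type pool 2 at 24 h (0.027) or null pool 2 at 8 h (0.041), with array weights (0.049) and with a replicate block (0.016). Neither other probe set of Myb was called at 24 h. There 1450194_a_at differed by -0.60 with the groups overlapping (adjusted p = 0.25), and 1422734_a_at by -0.75 with the groups apart (adjusted p = 0.12).

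Over time Myb fell 1.76-fold in null (log2 -0.82, SE 0.20, adjusted p = 0.041) and 2.07-fold in wild type (log2 -1.05, SE 0.20, adjusted p = 0.015). The null change was lost as a call when any 1 of 9 pools was left out (adjusted p 0.051 to 0.15), and the wild type one without wild type pool 1 at 8 h (0.073). Its groups had the same order as those of Stc2, with wild type at 24 h and null at 8 h overlapping in the middle. All 3 probe sets of Myb were called lower in null at 8 h, the other two with differences of -0.98 (adjusted p = 0.035) and -0.89 (adjusted p = 0.041). The one with the lowest signal, 1422734_a_at, was not called over time in null (log2 -0.64, adjusted p = 0.10) or in wild type (log2 -0.78, adjusted p = 0.052). It passed the filter through 4 arrays, those of wild type at 8 h and null pool 3 at 8 h. Its call at 8 h is therefore no further support, since it was let in by the group where it is high. The x_at ending of the first marks, in Affymetrix naming, probes that can match other sequences too.

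Greb1 encodes a chromatin-bound cofactor of the estrogen receptor, known from human breast cancer cells. Its probe set 1439568_at read 5.67, 5.37 and 5.06 in null glands at 24 h, against 7.65, 8.21 and 8.40 in null glands at 8 h. In wild type it read 6.26, 5.58 and 6.93 at 24 h, against 7.98, 7.84 and 8.32 at 8 h. The 24 h arrays lay below the array medians on most pools, and no array at 24 h reached any at 8 h. The level fell 6.59-fold in null (log2 -2.72, SE 0.30, adjusted p = 0.0013) and 3.46-fold in wild type (log2 -1.79, SE 0.30, adjusted p = 0.010). A second probe set, 1419593_at, also fell, with changes of -2.91 in null (adjusted p = 0.0023) and -2.26 in wild type (adjusted p = 0.0082). Both passed the filter through every array at 8 h and few at 24 h (8 arrays for 1439568_at, 7 for 1419593_at). The size of the fall therefore rests on low values at 24 h. Both were let in mainly by the time where they are high, so the calls on 1419593_at are no further support for the fall. The calls on 1439568_at held with each of the 12 pools left out in turn. The other 2 probe sets stayed below the median on all 12 arrays.

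Between genotypes Greb1 was not called. At 8 h the difference was 0.04 (95% interval -0.63 to 0.71), and the groups overlapped. At 24 h it was -0.89 (SE 0.30, 95% interval -1.56 to -0.22, adjusted p = 0.23), and a wild type pool at 5.58 lay among the null arrays. The larger fall in null was not called as a difference of effects (-0.93, 95% interval -1.88 to 0.01, unadjusted p = 0.053, adjusted p = 0.89). Without that wild type pool the 24 h difference had an adjusted p of 0.039. Greb1 thus had 2 levels by time, with the genotypes overlapping at each.

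Nrip1 encodes RIP140, a corepressor that binds hormone-bound nuclear receptors. Its probe set 1434384_at read 10.78, 10.66 and 10.80 in null glands at 24 h, against 10.59, 11.01 and 10.79 in wild type. After 8 h the values were 10.48, 10.69 and 10.58 in null glands, against 10.47, 10.45 and 10.80 in wild type. All neighbouring groups overlapped. The genotype difference was -0.05 at 24 h (95% interval -0.31 to 0.20) and 0.01 at 8 h (95% interval -0.25 to 0.27), and the changes over time were 0.16 in null (adjusted p = 0.47) and 0.22 in wild type (adjusted p = 0.30). The other 3 tested probe sets of Nrip1 lay the other way over time, between -0.39 and -0.11 in null and between -0.44 and -0.05 in wild type, and none was called. The probe sets of Nrip1 therefore give no common direction over time. On 1418469_at the groups were apart over time in null (adjusted p = 0.11) and in wild type (adjusted p = 0.073), and on 1449089_at in wild type (adjusted p = 0.27). Between genotypes none of the other 3 was called. At 8 h 1418469_at stood lower in null with the groups apart (log2 -0.25, adjusted p = 0.39).

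Slc7a2 encodes a transporter of cationic amino acids, including arginine. Its probe set 1436555_at read 9.47, 8.99 and 9.23 in null glands at 24 h, against 8.42, 8.23 and 8.37 in wild type. At 8 h it read 9.92, 9.41 and 9.76 in null glands, against 8.70, 8.64 and 9.09 in wild type. It was the member with every null array above every wild type array at both times. Null glands were 1.85-fold higher at 24 h (log2 0.89, SE 0.16, adjusted p = 0.022) and 1.85-fold higher at 8 h (log2 0.88, SE 0.16, adjusted p = 0.012). The interval of the difference between these effects ran from -0.49 to 0.50. The 24 h call was lost without null pool 1 or 3 or wild type pool 1 or 3 at 24 h (adjusted p 0.066 to 0.088), and the 8 h call without wild type pool 1 or 2 or null pool 3 at 8 h (0.051 to 0.065).

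Over time Slc7a2 was 1.38-fold lower at 24 h in null (log2 -0.47, SE 0.16) and 1.39-fold lower in wild type (log2 -0.47, SE 0.16), neither called (adjusted p = 0.12 each), and both were called with a replicate block (0.042 in null, 0.039 in wild type). In order, null at 8 h, null at 24 h and wild type at 8 h overlapped with their neighbours, and wild type at 24 h lay below. The other 3 probe sets were below the array median on all 12 arrays. In a fit without the filter, 1422648_at differed by 0.70 at 24 h (adjusted p = 0.091) and 1.10 at 8 h (adjusted p = 0.0039), 1426008_a_at by 0.15 at 24 h (adjusted p = 0.64) and 0.61 at 8 h (adjusted p = 0.016), and 1450703_at by 0.04 at 24 h and -0.04 at 8 h.

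Pdzk1 encodes a scaffold protein whose PDZ domains hold transporters at the apical membrane. Its single probe set read 4.40, 4.75 and 4.54 in null glands at 24 h, against 4.21, 4.82 and 4.14 in wild type. At 8 h it read 4.52, 4.44 and 4.36 in null glands, against 4.50, 4.32 and 4.27 in wild type. All arrays lay below their medians, and all neighbouring groups overlapped. In the fit without the filter its genotype differences were 0.18 at 24 h (adjusted p = 0.71) and 0.07 at 8 h (adjusted p = 0.95), and its low signal limits what these arrays can show of it.

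**Figure D2:**
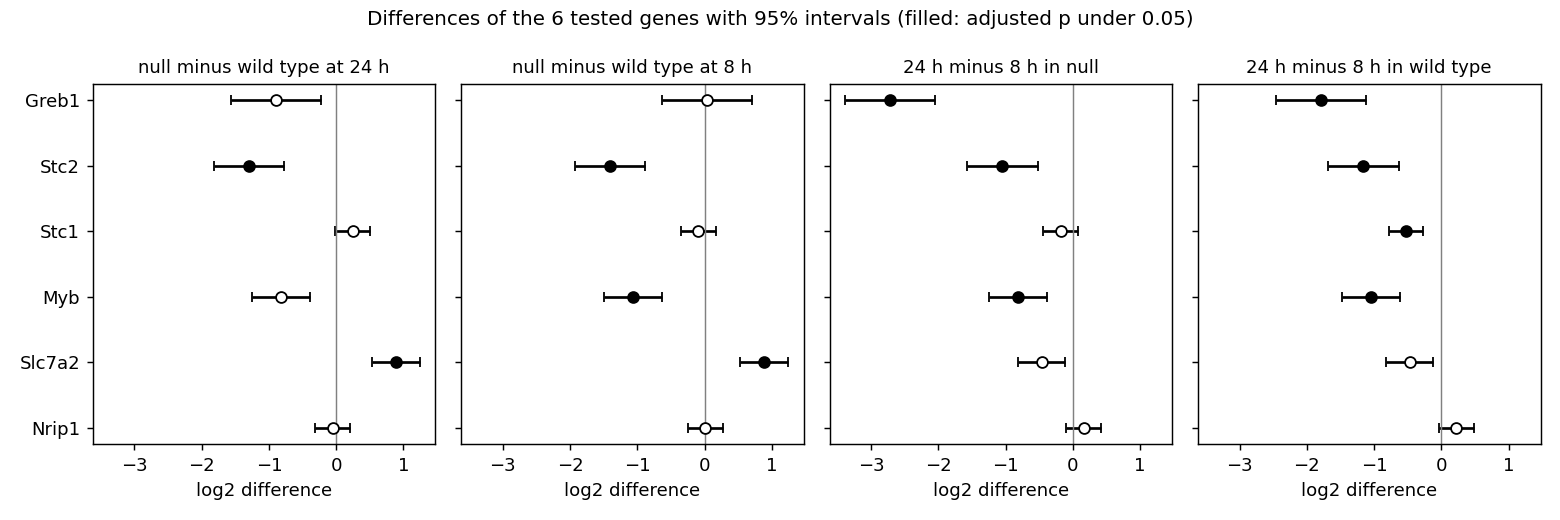
Log2 differences of the representing probe sets, null minus wild type at 24 h and 8 h and 24 h minus 8 h in null and wild type; points are estimates and bars are 95% intervals from the fit over all probe sets. Stc2 lies below 0 in all 4 comparisons, Slc7a2 lies above 0 between genotypes, and the intervals of Nrip1 all include 0.

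The groups did not overlap between genotypes for 4 of the 6 tested genes at 24 h (Stc2, Stc1, Myb and Slc7a2), against 15.9% of all tested genes, and for 3 of the 6 at 8 h, against 24.8%. Over time they did not overlap for 3 of the 6 in null, against 26.4% of all genes, and for 5 of the 6 in wild type, against 26.2%. Greb1 is among these in both genotypes and Stc1 in wild type, and both passed the filter mainly through the time where they are high. For the genotype difference at 24 h minus that at 8 h, 0 of the 6 were called by limma and 0 had an unadjusted p below 0.05, while 0.133% of all genes were called and 6.21% had such an unadjusted p. Across the 12 arrays, which share the 4 groups, Stc2 and Myb followed each other with Pearson r 0.945, while Greb1 correlated with Stc2 at 0.735 and with Myb at 0.739. Slc7a2 had r of -0.34 with Stc2 and -0.22 with Myb.

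**Figure D3:**
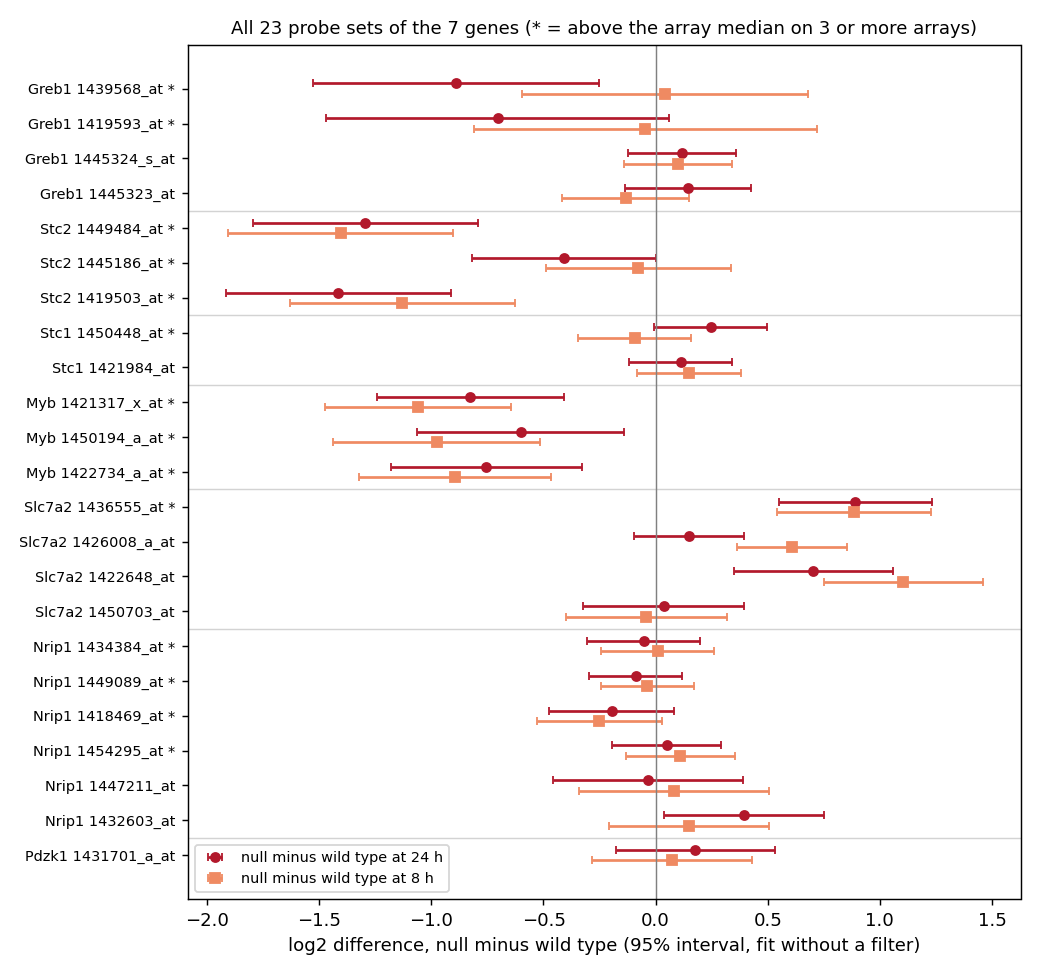
Log2 differences of all 23 probe sets of the 7 genes, null minus wild type, at 24 h and at 8 h, from a fit without the filter; points are estimates and bars are 95% intervals, and stars mark the 14 probe sets that passed the filter. The 3 probe sets of Myb lie together below 0, and 1 of the 3 of Stc2 lies nearer 0 than the others.

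The genes whose levels most resembled each member over the 12 arrays were taken from 557 or 558 candidate genes whose group means spanned at least 1 on the log2 scale. For Greb1 they were Gas6 (r = 0.980) and Socs2 (0.979), and for Stc2 they were Chka (0.972) and Cited4 (0.970). For Myb they were Marcksl1 (0.959) and Pde5a (0.952), and for Slc7a2 they were Wnt5a (0.934) and Slc5a5 (0.932). Stc1 was nearest to Foxi1 (0.931) and Tmem158 (0.823), and Nrip1 to Sncg (0.816) and Bmper (0.790). Slc5a5, the sodium iodide symporter, read 6.62, 6.64 and 6.72 in null glands at 24 h, against 4.32, 4.46 and 4.81 in wild type, and 7.89, 7.67 and 8.09 in null glands at 8 h, against 5.83, 6.04 and 5.73 in wild type. These correlations describe 4 group levels and carry no test.

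Esr1, the estrogen receptor alpha itself, was not called between genotypes. It read 10.64, 10.52 and 10.34 on 1460591_at in null glands at 24 h, against 10.76, 10.93 and 10.55 in wild type, and 10.74, 10.43 and 10.56 in null glands at 8 h, against 10.97, 10.80 and 10.80 in wild type. The differences of -0.25 at 24 h (adjusted p = 0.38) and -0.28 at 8 h (adjusted p = 0.28) were not called. Over time this probe set changed by -0.08 in null (adjusted p = 0.73) and by -0.11 in wild type (adjusted p = 0.63). On its second tested probe set, 1435663_at, the level fell by 0.64 over time in null (adjusted p = 0.027), and the change of -0.44 in wild type, also with the groups apart, was not called (adjusted p = 0.092). Between genotypes that probe set stood lower in null at 24 h with the groups apart (log2 -0.45, adjusted p = 0.17) and overlapped at 8 h (log2 -0.25, adjusted p = 0.43). Of 14 genes listed as receptor, pioneer factors and co-regulators, 11 were tested. Between genotypes 1 was called at 24 h, Tfap2c, an AP-2 transcription factor, against 1.30% of all tested genes. None was called at 8 h, against 3.00% of all, and 4 of the 11 had an unadjusted p below 0.05 there, against 16.3% of all. Tfap2c read 6.06, 5.74 and 6.01 in null glands at 24 h, against 7.36, 6.97 and 7.90 in wild type (log2 -1.47, SE 0.20, 2.77-fold lower, adjusted p = 0.0046). Over time 1 of the 11 was called in wild type, against 5.27% of all genes: Foxa1, a pioneer factor of the receptor, was 1.77-fold higher at 24 h (log2 0.82, adjusted p = 0.014). None was called over time in null, against 4.57% of all, and 5 had an unadjusted p below 0.05, against 21.2% of all.

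Of 33 other genes listed as estrogen receptor targets, 28 were tested. Between genotypes 2 of the 28 were called at 24 h, both lower in null, against 1.30% of all tested genes. None was called at 8 h, against 3.00% of all, and 8 had an unadjusted p below 0.05 there, against 16.3% of all. Myc, a transcription factor of growth, read 7.72, 8.17 and 8.42 in null glands at 24 h, against 9.23, 8.86 and 9.52 in wild type (log2 -1.10, adjusted p = 0.015). Ccnd1, cyclin D1, which drives entry into the cell cycle, read 8.75, 8.87 and 8.89 in null, against 10.13, 9.48 and 9.97 in wild type (log2 -1.03, adjusted p = 0.0041). Both genes had null and wild type apart at 24 h. Over time 3 of the 28 fell in null, where 3.83% of all genes were called lower: Ccn5, a secreted matricellular protein (log2 -0.90, adjusted p = 0.035), Car12, a carbonic anhydrase (log2 -0.82, adjusted p = 0.045), and Igfbp5, a binding protein of insulin-like growth factors (log2 -0.66, adjusted p = 0.0089). In wild type 3 were called lower, against 3.82% of all genes: Olfm1, a secreted olfactomedin (log2 -0.66, adjusted p = 0.023), Igfbp4, another such binding protein (log2 -0.49, adjusted p = 0.017), and Ctsd, the protease cathepsin D (log2 -0.32, adjusted p = 0.024). These lists of genes are not shown to differ between genotypes: Igfbp5 also stood lower at 24 h in wild type with the groups apart (log2 -0.41, adjusted p = 0.051) and Ctsd in null (log2 -0.25, adjusted p = 0.063). None of the 28 was called for the difference of effects, against 0.133% of all genes. For that difference 4 of the 28 had an unadjusted p below 0.05, against 6.21% of all. The median difference of the 28 was -0.12 at 24 h and -0.02 at 8 h between genotypes, against -0.02 over all probe sets at both times. Over time it was -0.24 in null, against -0.03 over all probe sets, and -0.02 in wild type, as over all. In either direction, 15 of the 28 had an unadjusted p below 0.05 over time in null, against 21.2% of all genes. In wild type 13 of the 28 did, against 22.1%. The groups did not overlap over time for 12 of the 28 in each genotype, against 26.4% of all genes in null and 26.2% in wild type.

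**Figure D4:**
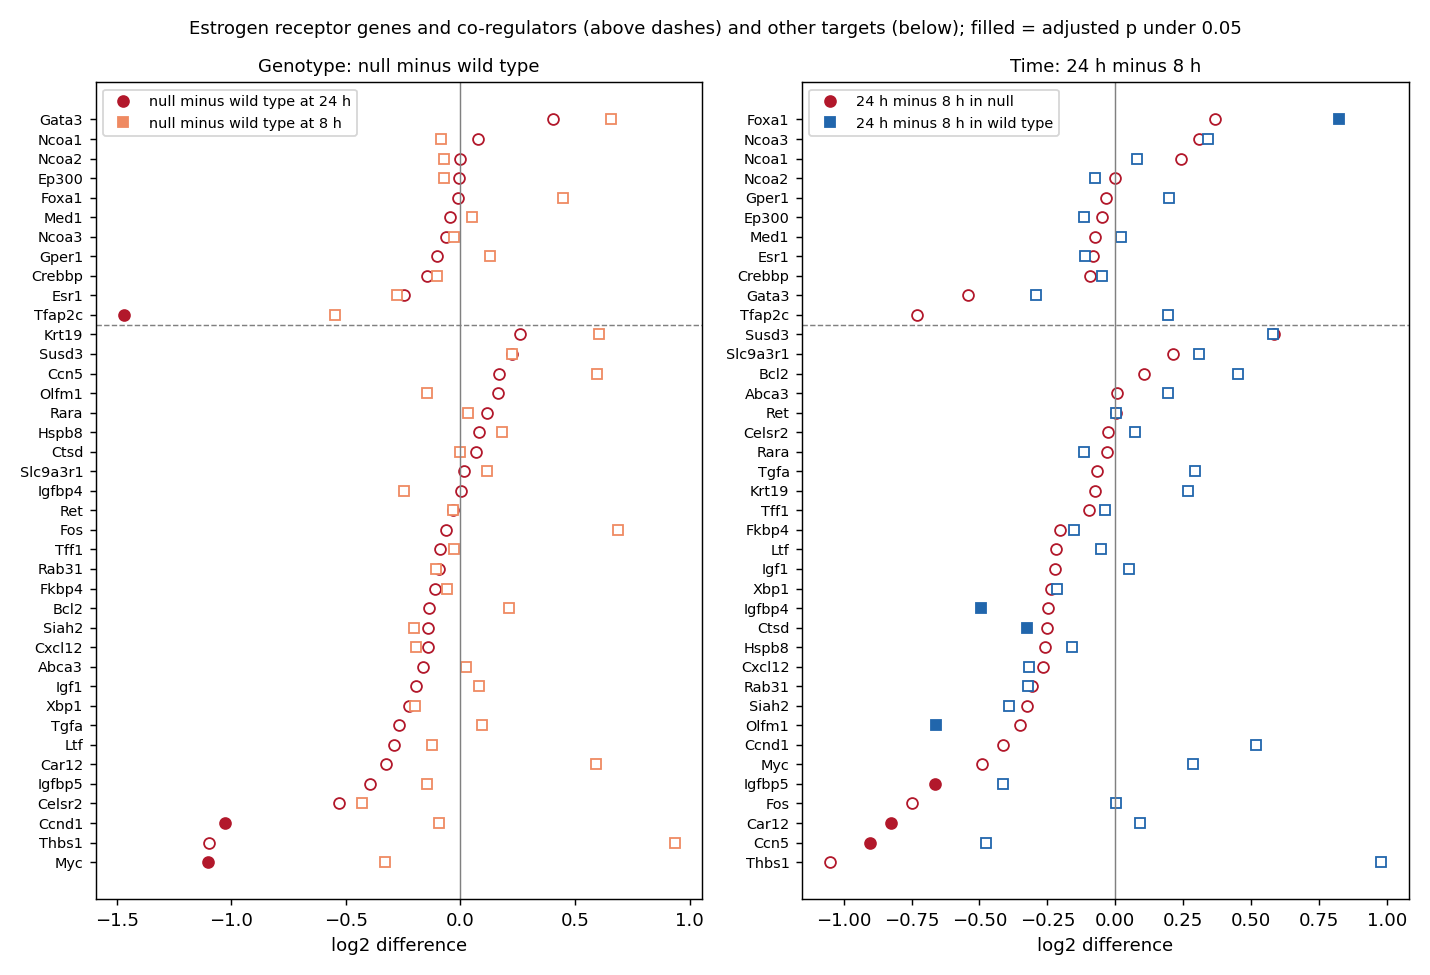
Log2 differences of the 11 tested genes of the receptor and co-regulator list (above the dashed line) and of the 28 tested other targets (below it), for null minus wild type at each time on the left and 24 h minus 8 h in each genotype on the right; each point is a gene, filled where called. Tfap2c, Ccnd1 and Myc are filled at 24 h between genotypes, and no gene is filled at 8 h.

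Epithelial marker levels moved with some of these comparisons. The 8 markers of luminal and general epithelium are not limited to the luminal subset that carries the estrogen receptor. Their mean level was 9.33, 9.34 and 9.10 in null glands at 24 h, against 9.90, 9.57 and 10.00 in wild type. At 8 h it was 9.76, 9.59 and 9.54 in null glands, against 9.40, 9.42 and 9.62 in wild type. At 24 h 4 of the 8 were called lower in null (Cdh1, Cldn3, Cldn7 and Esrp1, with differences between -1.19 and -0.86), and at 8 h 2 were called higher (Krt8 and Krt18). The remaining markers went both ways, without a call. At 24 h Krt8 (log2 0.19) and Krt19 (log2 0.26) lay higher in null, and Krt18 (log2 -0.18) and Epcam (log2 -0.70) lower. At 8 h Krt19 lay higher (log2 0.60) and Cldn3 lower (log2 -0.43), both with the groups apart. Epcam, Cdh1, Cldn7 and Esrp1 lay between -0.07 and -0.03 at 8 h. Over time in null, 3 of the 8 were called lower (Cdh1, Cldn7 and Esrp1), against 4.57% of all genes called. In wild type 2 were called higher (Krt8 and Cldn3), against 5.27%. The median change of the 8 over time was -0.38 in null and 0.32 in wild type. The basal and myoepithelial list of 7 markers had a mean of 8.40 to 8.64 in null glands at 24 h, against 8.95 to 9.52 in wild type, with no overlap, and 9.10 to 9.48 in null glands at 8 h, against 8.88 to 9.55 in wild type. Of the 7, Trp63, a basal transcription factor, was called lower in null at 24 h (log2 -1.41, adjusted p = 0.033), Krt14 differed by -1.72 without a call (adjusted p = 0.10), and none was called at 8 h, nor had an unadjusted p below 0.05. Of the 5 genes listed for hormone-sensing luminal cells, 3 were measured, Prom1, Cited1 and Foxa1. Their mean was 8.49 to 9.16 in null glands at 24 h, against 8.68 to 9.25 in wild type, and 7.94 to 8.54 in null glands at 8 h, against 8.83 to 8.89 in wild type. The members of that list moved apart at 8 h, where Prom1 was called higher in null (log2 1.10, adjusted p = 0.0083) and Cited1, a transcriptional coregulator, lower (log2 -3.22, adjusted p = 0.00051); at 24 h Prom1 differed by 0.72 (adjusted p = 0.11) and Cited1 by -1.37 (adjusted p = 0.094).

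Taken relative to the mean of the 8 luminal and general epithelial markers, Stc2 separated the genotypes by -0.73 at 24 h and by -1.55 at 8 h, and Slc7a2 by 1.46 at 24 h and by 0.74 at 8 h. Myb differed by -0.26 at 24 h with the groups overlapping and by -1.21 at 8 h with the groups apart. Stc1 then stood higher in null at 24 h, by 0.81, and lower at 8 h (log2 -0.24), with the groups apart at both times, while Greb1 and Nrip1 overlapped. Over time in null, Greb1 (log2 -2.35) and Stc2 (log2 -0.68) remained apart below 0, Nrip1 stood apart above it (log2 0.53), and Myb (log2 -0.44), Slc7a2 (log2 -0.09) and Stc1 (log2 0.19) overlapped. Over time in wild type, Greb1 (log2 -2.13), Stc2 (log2 -1.50), Myb (log2 -1.39), Stc1 (log2 -0.87) and Slc7a2 (log2 -0.81) were apart and Nrip1 overlapped. The 8 markers went in different directions between genotypes, and Krt19 among them is also on the list of other estrogen receptor targets. Their mean is therefore no neutral measure of epithelial content. These relative values are descriptions, and the part of cell content in the results was not tested further.

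Markers of other tissues in the gland also differed between arrays. The mean of 8 skeletal muscle markers ranged from 8.77 to 10.63 in null glands at 24 h, against 10.40 to 12.89 in wild type, and from 6.36 to 10.93 in null glands at 8 h, against 10.49 to 11.92 in wild type, with 0 of the 8 called at either time and 1 at an unadjusted p below 0.05 (at 8 h). The mean of 5 brown adipocyte markers ranged from 10.49 to 11.45 in null glands at 24 h, against 9.32 to 10.70 in wild type, and from 10.45 to 11.24 in null glands at 8 h, against 8.58 to 9.65 in wild type, with 3 of the 5 called higher at 8 h. Of the 5 alveolar markers, the milk protein genes Csn2 and Wap stood below the median on every array. The other 3 were tested, and none was called between genotypes. At 8 h Elf5 stood lower in null (log2 -0.76, adjusted p = 0.085) and Kit higher (log2 0.33, adjusted p = 0.16), both with the groups apart. Over time Kit was called lower in null (log2 -0.85, adjusted p = 0.0026) and Lalba in wild type (log2 -0.97, adjusted p = 0.037). The part of all these markers in the results of the members was not tested.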

How the data were processed

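The deposited table holds log2 values of 45101 probe sets on 12 Affymetrix arrays, made by the authors; the log2 scale was judged from the values, since the labels state none. Per the submitters' processing notes, MAS5 was used, with no role or version given; summarization and genome build were not given in the sources used here. Columns were matched to samples by their labels. Control probe sets were left out, and probe sets were named by GEO's platform annotation (34945 with 1 symbol, 932 with several, 9160 with none, with no symbol changed through Entrez).

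Group means were fitted with limma 3.58.1 (R 4.3.3; lmFit, eBayes with a trended prior, two-sided, Benjamini-Hochberg over 23709 probe sets, called below 0.05), on all 12 arrays. No test on the member list alone was made. The likest genes were the 2 with the highest Pearson r for each member; pathway genes were named by up to 4 called genes with the largest difference. Members, lists and tests were chosen with earlier results of these data known. The pools are the replicates, and 12 arrays limit the precision. The sample titles number the replicates and state no pairing. Deviations of pools with the same number went together in every pair over time in null (r 0.26 to 0.52). In the other comparisons r ran from -0.03 to 0.13 (genotypes at 8 h), -0.04 to 0.43 (genotypes at 24 h) and -0.01 to 0.45 (time in wild type). The main fit has no block in any comparison, time in null included. Alternatives were array weights, the replicate block, 2 groups alone, other filters and probe sets, and each pool left out in turn. The fit was tested on simulated data.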

Additional observations from a re-analysis of the deposited data

How the results depend on the processing

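Of the alternatives that leave out no pool, array weights moved the counts of called probe sets most, to 4017 between genotypes at 8 h, 685 at 24 h, 169 for the difference of effects and 5775 over time in null. With 1 probe set per gene the counts were 338, 165, 10, 572 and 648 (8 h, 24 h, difference of effects, time in null, time in wild type), against 729, 262, 34, 1044 and 1238 over all probe sets. With the 2 groups alone they were 71 at 24 h, 348 over time in null and 500 in wild type, and the called members were 0 at 24 h, 1 over time in null and 2 in wild type. A filter on all 12 arrays gave 7 for the difference of effects and 2 members over time in wild type, since Greb1 and Stc1 were then not tested.

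With the replicate block, which pairs pools of one number, 482 probe sets were called at 24 h and 1667 over time in null, and Slc7a2 was called over time in null (adjusted p = 0.042) and in wild type (0.039) and Myb between genotypes at 24 h (0.016). Left out in turn, the pools gave 320 to 889 probe sets at 8 h, 126 to 704 at 24 h, 12 to 45 for the difference of effects, 232 to 1202 over time in null and 239 to 1328 in wild type. The called members ranged from 1 to 3 at 8 h, 0 to 4 at 24 h, 1 to 3 over time in null and 1 to 4 in wild type, and were 0 to 0 for the difference of effects. Stc2 at 8 h and Greb1 over time in both genotypes were called without any of the 12 pools. The other calls of members were each lost without at least 1 pool, as given beside them.

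Over all member differences on the representing probe sets, 301 kept their direction and side of the threshold under settings that leave out no pool, 6 lost the call, 5 gained it and 2 turned sign; with pools left out 305 kept both, 38 lost the call, 3 gained it and 14 turned sign. Read from another tested probe set of the gene, 20 kept both, 7 lost the call (Stc2 and Myb) and 13 turned sign. Signs turned only where the difference was not called: with array weights for Slc7a2 (difference of effects, -0.16) and Stc1 (time in null, 0.0039); on other probe sets for Greb1 at 8 h (-0.047), Nrip1 at 8 h (-0.038 and -0.25), at 24 h (0.049), for the difference of effects (0.056), over time in null (-0.24, -0.39 and -0.11) and in wild type (-0.19, -0.44 and -0.052), and Stc2 for the difference of effects (-0.33 and -0.29). Leaving out pools moved Greb1 at 8 h from -0.12 to 0.26, Nrip1 from -0.052 to 0.12 at 8 h and -0.16 to 0.051 at 24 h, and the differences of effects of Slc7a2 from -0.14 to 0.13, Stc2 from -0.16 to 0.37 and Nrip1 from -0.18 to 0.042. The cause was not tested. Signal over background limits Pdzk1 and the probe sets that stayed below the median.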
